A study of Mus musculus with 4 samples.

Results

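The interferon-stimulated genes described here are 39 genes that cells switch on in response to interferons, chosen by name as the probes of 4 one-colour arrays that carry these gene symbols. They were represented by 51 probes on 69 spots, among 34844 gene names and 55681 probes on each array. RNA was taken from interscapular brown adipose tissue (iBAT) and epididymal white adipose tissue (eWAT) of WT mice and of mice deficient in ASK1, the stress-responsive kinase encoded by Map3k5. All mice were male and aged 10 weeks, were kept under normal conditions, and were of the C57BL/6J strain by the methods of the study, which used whole-body ASK1-deficient mice bred in a colony separate from the WT mice. The 4 groups were WT iBAT, ASK1-deficient iBAT, WT eWAT and ASK1-deficient eWAT, each with 1 array (n = 1) hybridised with RNA pooled from 3 mice. A group therefore has no spread between replicates, differences between genotypes within a tissue were not tested, and genotype cannot be told apart from the separately bred colonies or from the 1 pool that stands for it.

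Interferons are secreted proteins that bind paired receptors at the cell surface. Type I and type III interferons act through the kinases JAK1 and TYK2 to form a complex with STAT2 and IRF9 that binds interferon-stimulated response elements (ISREs), whereas interferon gamma acts through JAK1 and JAK2 on factors that bind gamma-activated sites (GAS). Their target genes encode sensors of foreign nucleic acid, antiviral effectors, GTPases directed at intracellular pathogens, and feedback regulators such as USP18, and in adipose tissue they are expressed both by adipocytes and by resident immune cells.

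The promoters of the members are shown first, because the letters of both elements can be read there. RefSeq promoter windows (GRCm38.p6, 250 bases before to 50 after the annotated start) were given for 29 of the 39 genes. The windows were searched on both strands for the ISRE letters, GAAA followed after any 2 bases by a further GAAA, and for the GAS letters, TTC followed after any 3 bases by GAA. Overlapping matches were each counted. The ISRE letters were present in 17 of the 29 members (58.6%), whereas 3.99% of 27025 genes held them, and the GAS letters were present in 11 members (37.9%) and in 9.55% of all genes. A match describes these letters and does not show that a factor binds there. Stretches of 9 members are printed from 5′ to 3′ on the strand of the gene, with the ISRE letters, or their reverse complement, in capitals. They were chosen because these genes had the largest differences between genotypes among those with a match before the start (Bst2, Ifit1, Ifit3, Oas1a, Tgtp1), because they show close copies (Igtp, Irgm2) or a run of matches (Isg15), or because the gene differed in opposite directions in the 2 tissues (Rsad2).
Bst2, chr8:71537567-71537622, minus strand: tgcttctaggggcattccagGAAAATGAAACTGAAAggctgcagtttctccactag
Ifit1, chr19:34640765-34640833, plus strand: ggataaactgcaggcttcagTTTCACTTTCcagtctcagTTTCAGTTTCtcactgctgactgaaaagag
Ifit3, chr19:34583353-34583436, plus strand: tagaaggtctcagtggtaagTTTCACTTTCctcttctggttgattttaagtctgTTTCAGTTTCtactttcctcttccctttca
Isg15, chr4:156200855-156200916, minus strand: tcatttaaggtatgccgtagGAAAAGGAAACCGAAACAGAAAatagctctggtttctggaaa
Oas1a, chr5:120907526-120907565, minus strand: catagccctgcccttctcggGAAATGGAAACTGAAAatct
Rsad2, chr12:26456543-26456592, minus strand: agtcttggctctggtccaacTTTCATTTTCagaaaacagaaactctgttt
Igtp, chr11:58199502-58199551, plus strand: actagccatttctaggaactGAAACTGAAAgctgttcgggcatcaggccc
Irgm2, chr11:58214893-58214942, plus strand: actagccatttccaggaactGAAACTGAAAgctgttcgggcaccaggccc
Tgtp1, chr11:48992294-48992343, minus strand: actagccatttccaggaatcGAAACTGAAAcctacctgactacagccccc

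The stretches of Igtp and Irgm2 had the same base at 48 of 50 positions, and that of Tgtp1 matched Igtp at 34 and Irgm2 at 36 of 50. In Isg15, 3 ISRE matches overlapped, and in Bst2 and Oas1a 2 did. In Bst2 the GAS letters overlapped the ISRE letters, and in Igtp, Irgm2 and Tgtp1 they lay just before them.

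**Figure D1:**
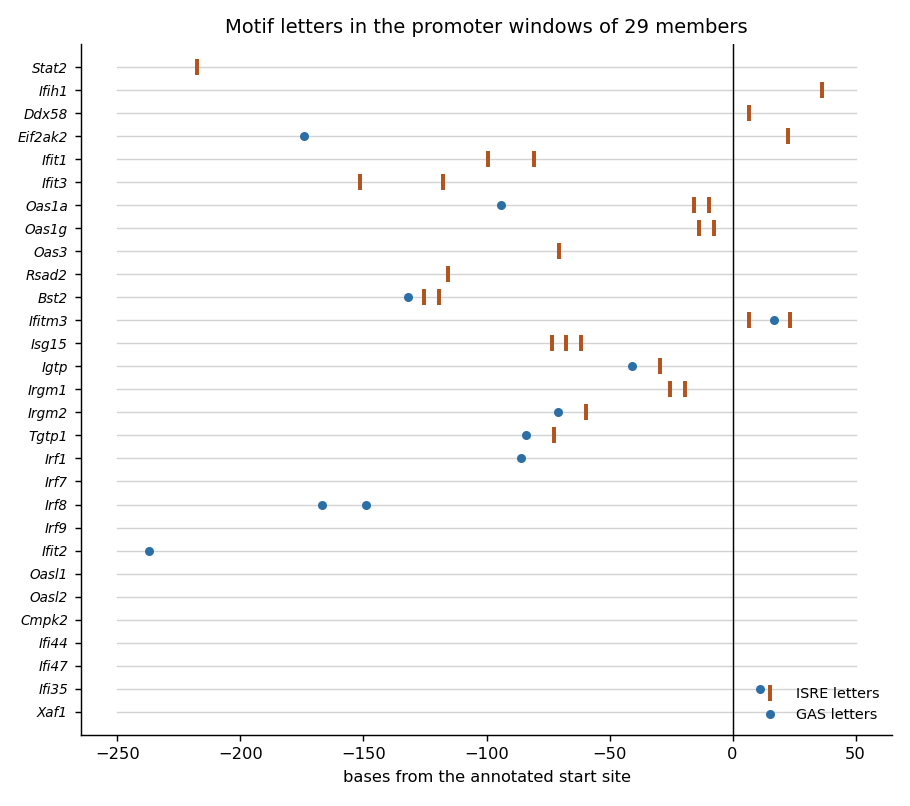
Positions of the ISRE letters (bars) and the GAS letters (points) in the promoter windows of the 29 members with a RefSeq window, in bases from the annotated start site (0). The 17 members with ISRE letters are drawn first, and most of their matches lie within 160 bases before the start or just after it, with Stat2 the exception.

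As a check of the labels, the Map3k5 probe A_52_P656714 gave signals in iBAT of 448 (WT) and 117 (ASK1-deficient), a log2 ratio of −2.0, and signals in eWAT of 701 and 194 (−1.76). The other Map3k5 probe gave log2 ratios of −0.06 and −0.51. Between 28985 and 33389 probes were well above background on an array, none was saturated, and all 4 arrays lay on 1 slide, so their number limits the precision. The 10 brown adipocyte markers had summed levels of 3919 and 3283 on the WT and ASK1-deficient arrays of iBAT and of 52.6 and 20.5 on those of eWAT, in units of the 75th percentile of each array. The WT eWAT array stood apart in 8 hepatocyte markers, all well above background there and 5 of them in ASK1-deficient eWAT, with summed levels of 20.6 and 3.79. In iBAT 3 of these 8 were well above background in WT and 7 in ASK1-deficient mice, with summed levels of 6.12 and 7.12. Their part in the members' values was not tested. Below, the level of a probe is its signal divided by that 75th percentile, a log2 ratio is the difference of log2 levels, and levels of different probes are not compared. Where 4 levels are given, their order is WT iBAT, ASK1-deficient iBAT, WT eWAT, ASK1-deficient eWAT. The error given with a log2 ratio comes from the error model of the scanner software, and it covers neither pools nor animals.

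In iBAT most interferon-stimulated genes were higher in ASK1-deficient than in WT mice, whereas in eWAT 18 were higher and 19 lower. Of the 39 members, 36 had a probe well above background on both iBAT arrays. Of these, 33 had a log2 ratio above 0, against 40.5% of the 14377 genes measured. At least 1.5-fold higher were 13 members, against 4.52% of all genes, and none was 1.5-fold lower, against 4.26%. This count of 13 was 7 after normexp background correction, against 1.59% of all genes, and ranged up to 17, against 6.65%, over the scalings tried. At least 2-fold higher were 2, Usp18 and Bst2, against 0.835% of all genes. The median log2 ratio of the members was 0.47, with a range from −0.35 to 1.30, and that of all genes was −0.07. In these bulk samples, a change in the number of cells of a type and a change in RNA per cell cannot be told apart. In eWAT, 37 members were measured. There 18 had a log2 ratio above 0, against 54.1% of 15377 genes, and none reached 1.5-fold in either direction (1.38% of all genes higher, 2.67% lower). The eWAT median was −0.00, with a range from −0.30 to 0.51, beside 0.02 for all genes. How far the all-gene median lies from 0 depended on the scaling: over the scalings tried it lay between −0.15 and 0.04 in iBAT, and 30.3% to 55.1% of all genes lay above 0. Relative to the median of all genes, the iBAT median of the members was 0.53 higher under each scaling by 1 constant per array, 0.43 higher after normexp background correction and 0.56 higher after cyclic loess normalization.

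**Figure D2:**
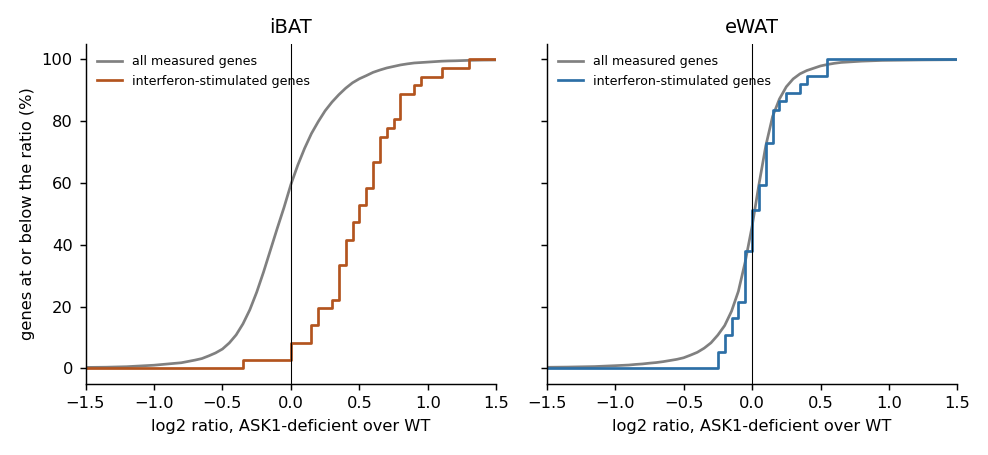
Cumulative distribution of the log2 ratio, ASK1-deficient over WT (x axis), over the interferon-stimulated genes (coloured steps) and over all measured genes (grey), as a percentage of genes at or below each ratio (y axis), for iBAT with 36 members and eWAT with 37. In iBAT the members lie to the right of all genes between ratios of −0.5 and 1, with medians of 0.47 and −0.07, and in eWAT both curves cross close to 0.

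The ISG15 system, a ubiquitin-like protein and the protease that removes it, held 1 of the 2 members beyond 2-fold in iBAT. Usp18 removes ISG15 from proteins and also dampens signalling at the type I interferon receptor. Its probe (mm9 chr6:121220874-121220933) had levels of 0.508, 1.25, 0.673 and 0.658. The ASK1-deficient iBAT array thus stood above the other 3, and the log2 ratio was 1.30 ± 0.21 (2.45-fold) in iBAT, whereas it was −0.03 ± 0.21 in eWAT. Isg15 itself, the ubiquitin-like modifier, had levels of 3.84, 5.06, 5.15 and 5.60 on its brighter probe. Over its 2 probes the log2 ratio was 0.33 ± 0.15 in iBAT against 0.08 ± 0.15 in eWAT, so that WT iBAT was the lowest array for both genes.

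Antiviral effectors made up the largest group. Bst2, or tetherin, which holds budding virus particles at the cell surface, had levels of 6.0, 12.8, 7.88 and 10.1 (mm9 chr8:74058603-74058662). Bst2 was higher in ASK1-deficient mice in both tissues, with a log2 ratio of 1.10 ± 0.20 (2.14-fold) in iBAT against 0.36 ± 0.20 in eWAT. Ifi44, an interferon-induced protein with antiviral activity, had levels of 0.211, 0.395, 0.487 and 0.416. Its log2 ratio was 0.91 ± 0.22 in iBAT but −0.23 ± 0.21 in eWAT, so the direction differed between the tissues. After normexp background correction the iBAT log2 ratio of Ifi44 was smaller, 0.43. Cmpk2, a mitochondrial nucleotide kinase whose gene neighbours Rsad2, was measured by 2 probes. The brighter one had levels of 0.697, 1.16, 0.715 and 0.853, and the dimmer one 0.322, 0.662, 0.272 and 0.460. In both tissues the ASK1-deficient array was the higher one on both probes, and the log2 ratio was 0.89 ± 0.15 in iBAT against 0.50 ± 0.15 in eWAT.

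Rsad2, or viperin, a radical SAM enzyme that makes a chain-terminating nucleotide, had levels of 1.52, 2.0, 1.48 and 1.21. Its log2 ratio of 0.40 ± 0.20 in iBAT stood against −0.30 ± 0.20 in eWAT, the lowest value of the 37 members measured there. Mx1, the gene of a dynamin-like GTPase, was not well above background in WT iBAT (level 0.0175) and had levels of 0.0781, 0.344 and 0.288 on the other arrays. It was at least 1.41-fold higher in ASK1-deficient iBAT, a lower bound against the dimmest probe well above background on the WT array, and its eWAT log2 ratio was −0.26 ± 0.21. For Mx2, the related GTPase, the log2 ratio was 0.57 ± 0.22 in iBAT but −0.12 ± 0.21 in eWAT. Rtp4, a chaperone of G protein-coupled receptors, had a ratio of 0.62 ± 0.20 (log2) in iBAT against 0.04 ± 0.20 in eWAT. Ifitm3, which blocks the fusion of virus and endosome membranes, was measured by 10 spots and had levels of 7.32, 10.1, 22.8 and 21.3. All 10 spots gave a higher value in ASK1-deficient iBAT, between 0.40 and 0.56 (0.46 ± 0.063, SD over spots), and in eWAT the spots lay between −0.18 and 0.02. In iBAT, all 7 measured effectors had a log2 ratio above 0, against 40.5% of all genes, and 4 were at least 1.5-fold higher, against 4.52%. Of these 4, Ifi44 and Rtp4 fell below 1.5-fold at their lowest over the settings tried (0.43 and 0.53). In eWAT 3 of 8 were above 0, against 54.1% of all genes.

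The IFIT proteins bind foreign RNA and block its translation, and all 3 genes were higher in ASK1-deficient iBAT, as were 40.5% of all genes. Ifit1, which recognises RNA whose cap lacks methylation, had levels of 0.261, 0.451, 0.411 and 0.426. Ifit3, a related protein, had levels of 0.825, 1.41, 2.46 and 2.65. For both genes the WT iBAT array was the lowest of the 4. The log2 ratio in iBAT was 0.79 ± 0.22 for Ifit1, 0.77 ± 0.21 for Ifit3 and 0.43 ± 0.24 for Ifit2, and in eWAT these 3 ratios lay between 0.05 and 0.11. A near-identical copy of Ifit3 lies beside it, so the signal of its probe may be shared.

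The OAS family makes short oligoadenylates, the messenger that activates RNase L, on contact with double-stranded RNA. The brighter Oas1a probe had levels of 1.14, 1.99, 4.40 and 4.27, and the dimmer one 0.291, 0.452, 0.889 and 0.813. Both probes were higher in ASK1-deficient than in WT iBAT and higher still on both eWAT arrays. The log2 ratio of Oas1a was 0.72 ± 0.15 in iBAT but −0.09 ± 0.14 in eWAT. In iBAT the ratios were 0.70 ± 0.21 for Oas2, 0.60 ± 0.21 for Oasl1 and 0.54 ± 0.21 for Oasl2, and in eWAT 0.20, −0.01 and 0.11. Oas3 (1 probe) and Oas1g (2 probes) were not well above background on any of the 4 arrays and have no ratio. Oas1a and Oas1g are close paralogs with the same promoter letters at 38 of 38 bases compared, and probes of such copies may share signal.

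Immunity-related GTPases attack the membranes around intracellular pathogens and are classical targets of interferon gamma. All 6 had a log2 ratio above 0 in iBAT, between 0.39 and 0.78, against 40.5% of all genes above 0. In eWAT 4 of the 6 were above 0, beside 54.1% of all genes. Tgtp1 had low levels of 0.0920, 0.158, 0.0834 and 0.119. Its log2 ratio was 0.78 ± 0.31 in iBAT against 0.51 ± 0.25 in eWAT, with wider errors than brighter probes had, and its neighbouring copy Tgtp2 may share the signal. After normexp background correction the log2 ratio of Tgtp1 was 0.22 in iBAT, the lowest of the 6, and 0.34 in eWAT. Igtp, measured on 10 spots, had levels of 7.40, 10.1, 6.13 and 6.22. Over 9 usable pairs of spots its log2 ratio in iBAT was 0.45 ± 0.079 (SD over spots), and over 10 in eWAT 0.02 ± 0.068, so that both iBAT arrays lay above both eWAT arrays. The 2 probes of Iigp1 disagreed in size in iBAT. The dimmer one, with levels of 0.242, 0.423, 0.488 and 0.481, had a log2 ratio of 0.80, and the brighter one, with levels of 2.71, 3.13, 2.93 and 2.91, had 0.21. For Irgm1 the log2 ratio was 0.39 ± 0.15 in iBAT against 0.14 ± 0.14 in eWAT. For Irgm2 these ratios were 0.57 ± 0.20 and 0.10 ± 0.20, and for Ifi47 0.40 ± 0.20 and −0.09 ± 0.20.

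The 5 transcription factors had a median log2 ratio of 0.29 in iBAT against −0.10 in eWAT. Irf8, which interferon gamma induces and which macrophages and dendritic cells need for their development, had levels of 0.742, 1.15, 3.19 and 2.70. Its log2 ratio was 0.63 ± 0.21 in iBAT but −0.24 ± 0.20 in eWAT, and it had the largest difference between tissues in WT mice of the members measured. Irf7, the factor that amplifies type I interferon production, had levels of 0.488, 0.597, 0.966 and 1.19. It was one of the few members with like ratios in both tissues, 0.29 ± 0.21 and 0.30 ± 0.20. Stat2, which joins Irf9 in the complex that binds ISREs, had a ratio of 0.35 ± 0.20 (log2) in iBAT but −0.18 ± 0.20 in eWAT. Irf9 had log2 ratios of 0.14 ± 0.20 and −0.10 ± 0.20, and Irf1 0.16 ± 0.20 and 0.14 ± 0.20, all within 1 software error of 0. A second Irf1 probe was not well above background on any array.

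The sensors of foreign nucleic acid had the lowest median log2 ratio of the 8 roles in iBAT, 0.14, and their eWAT median was −0.09. Zbp1, which senses Z-form nucleic acid, was the exception, with levels of 0.436, 0.658, 1.08 and 1.01 on its brighter probe. Its log2 ratio was 0.59 ± 0.21 in iBAT but −0.16 ± 0.15 in eWAT, where the brighter probe alone gave −0.10. The dimmer Zbp1 probe had levels of 0.0411, not well above background, and 0.0688 in iBAT, higher by at least 1.24-fold without ASK1, and 0.249 and 0.212 in eWAT. Ifih1 (MDA5), the sensor of long double-stranded RNA, had levels of 1.42, 1.80, 3.77 and 3.68 on its brighter probe and a log2 ratio of 0.34 ± 0.20 in iBAT against −0.00 ± 0.17 in eWAT. The dimmer Ifih1 probe went the other way in iBAT, with 0.0554 in WT and 0.0421, not well above background, in ASK1-deficient mice, at least 1.19-fold higher in WT, and had 0.0736 and 0.0754 in eWAT. Ddx58 (RIG-I), the sensor of triphosphate RNA ends, had 0.14 ± 0.15 and −0.09 ± 0.15. Dhx58 (LGP2), a regulator of both these helicases, had levels of 0.471, 0.368, 0.579 and 0.598. With a log2 ratio of −0.35 ± 0.21 in iBAT it was the member furthest below 0 there, and its eWAT ratio was 0.05 ± 0.21. Eif2ak2 (PKR), the kinase that stops translation on double-stranded RNA, had −0.03 ± 0.21 and −0.09 ± 0.20.

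Of the PARP proteins and other regulators, Parp14, a mono-ADP-ribosyltransferase, had a log2 ratio of 0.31 ± 0.20 in iBAT but −0.09 ± 0.20 in eWAT. Xaf1, which opposes the apoptosis inhibitor XIAP, had levels of 1.62, 2.24, 2.74 and 3.0 on its brighter probe. The dimmer Xaf1 probe had 0.0638, not well above background, and 0.0644 in iBAT, and 0.131 and 0.165 in eWAT. On both probes the WT array was the lower one in each tissue, but by little on the dimmer probe in iBAT. There the observed ratio was 1.01-fold (log2 ratio 0.01 ± 0.44). The log2 ratio of Xaf1 was 0.47 ± 0.20 in iBAT against 0.23 ± 0.15 in eWAT. Ifi35, an interferon-induced leucine zipper protein, had 0.15 ± 0.20 and −0.01 ± 0.20. The probes of Parp9, the partner of the ubiquitin ligase DTX3L, disagreed: the brighter one had levels of 2.72, 2.68, 4.86 and 5.71, a log2 ratio of −0.02 ± 0.20 in iBAT. The dimmer Parp9 probe had 0.0594, not well above background, and 0.113 in iBAT, and 0.104 and 0.0976 in eWAT. Its observed iBAT ratio was 1.90-fold, higher without ASK1, with a wide error (log2 ratio 0.92 ± 0.44).

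**Figure D3:**
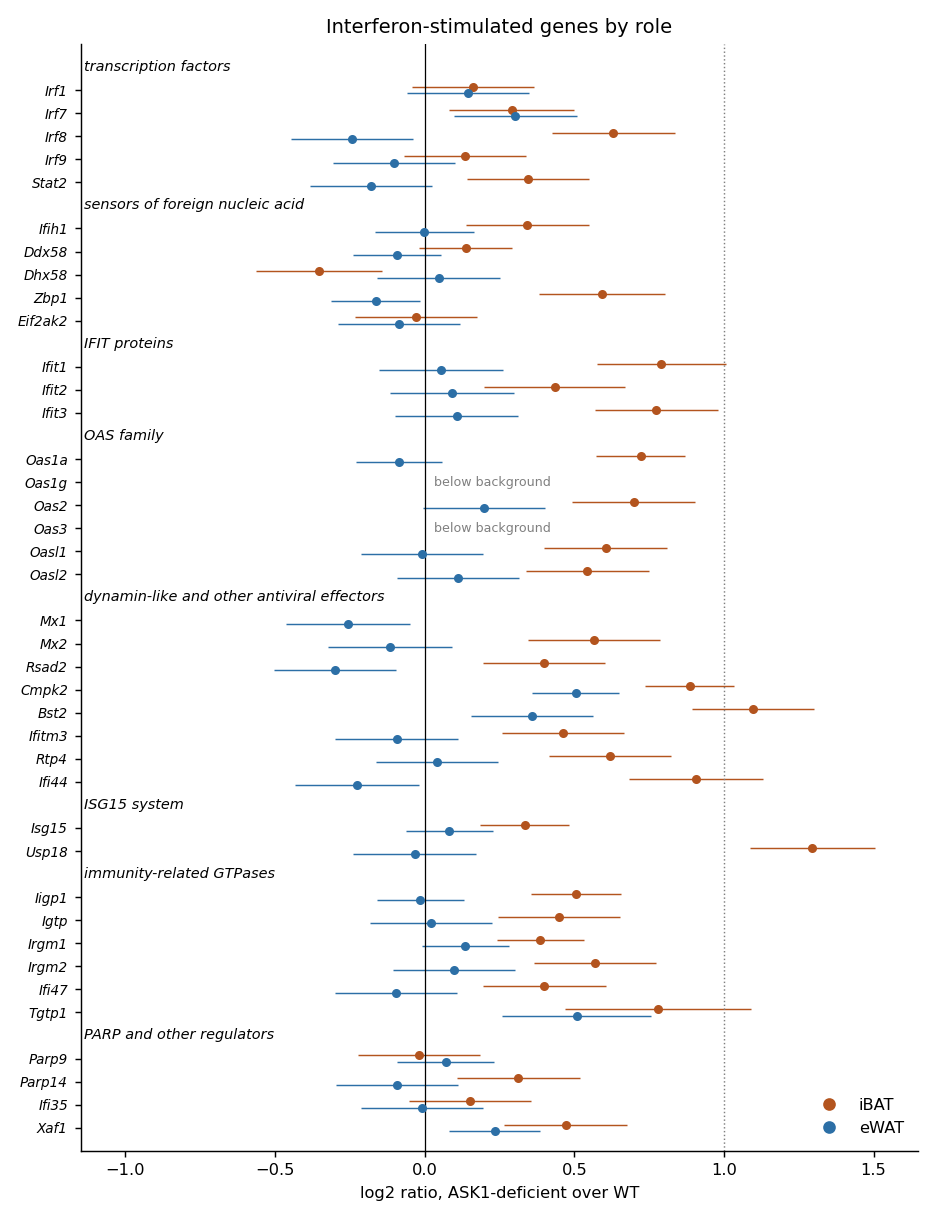
Log2 ratio, ASK1-deficient over WT (x axis), of each member in iBAT (orange) and eWAT (blue), grouped by role. Points are means over the probes of a gene well above background on both arrays, bars the error of the scanner software and not a spread between animals, and the dotted line marks 2-fold. Usp18 (1.30) and Bst2 (1.10) lie beyond it in iBAT, 33 of 36 iBAT points lie above 0, and the eWAT points lie on both sides of 0. Mx1 has no iBAT point, since it was not well above background in WT iBAT.

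A member's ratio can be set against technical scatter only. Over 276 probes with at least 5 usable spots, the median SD of the log2 ratio between spots was 0.087 in iBAT, and over 292 probes in eWAT it was 0.060. The log2 ratio was higher in iBAT than in eWAT for 33 of the 36 members measured on all 4 arrays, against 39% of 14059 genes, and by at least 1.5-fold for 11, against 6.14%. The median difference was 0.45 among the members and −0.08 among all genes. For 17 members the ratio was above 0 in iBAT and below 0 in eWAT, against 18% of all genes, and for 2 it was the other way round, against 32.6%. Both ratios lay beyond 2 median SDs of repeated spots for 5 of the 36 in the first direction, against 5.5% of all genes, and for none in the second, against 6.61%. In eWAT the ratios of these 5 members lay within 2 of their own software errors of 0. Among the genes in the first direction alone, the share beyond 2 SDs was 29.4% of the 17 members and 30.5% of 2535 genes, so it was near the background. Dhx58, Parp9 and Irf7 were the 3 members with the lower ratio in iBAT, and for Irf7 the ratios differed by 0.01. These differences between tissues were not tested.

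Most interferon-stimulated genes had a lower level in iBAT than in eWAT in both genotypes. In WT mice 32 of 36 members had a log2 ratio of iBAT over eWAT below 0, against 43.6% of all genes, and 11 were at least 2-fold lower, against 13.4%. At 1.5-fold 19 were lower, against 21.4%. In ASK1-deficient mice 26 of 37 were below 0, against 48.6%, and 7 at least 2-fold lower, against 12.6%. At 1.5-fold 14 were lower, against 21.2%, and 3 higher (Usp18, Rsad2 and Igtp), against 23.2%. The median log2 ratio of iBAT over eWAT was −0.70 in WT and −0.39 in ASK1-deficient mice, beside 0.12 and 0.03 for all genes. In WT mice Irf8 (−2.10), Oasl2 (−1.99), Oas2 (−1.88), Oas1a (−1.78), Ifitm3 (−1.64) and Ifit3 (−1.58) had the lowest ratios. In ASK1-deficient mice these 6 ratios were −1.23, −1.56, −1.38, −0.98, −1.08 and −0.91. Mx1, not well above background in WT iBAT, was at least 6.22-fold lower there than in WT eWAT, and its log2 ratio in ASK1-deficient mice was −1.88. Usp18 turned from −0.41 in WT to 0.92 in ASK1-deficient mice. The WT iBAT array had the lowest level of the 4 for 29 of 36 members and the highest for none, whereas it was lowest for 24.4% and highest for 39.1% of 14057 genes. Both eWAT arrays lay above both iBAT arrays for 25 members (69.4%), against 37% of all genes.

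**Figure D4:**
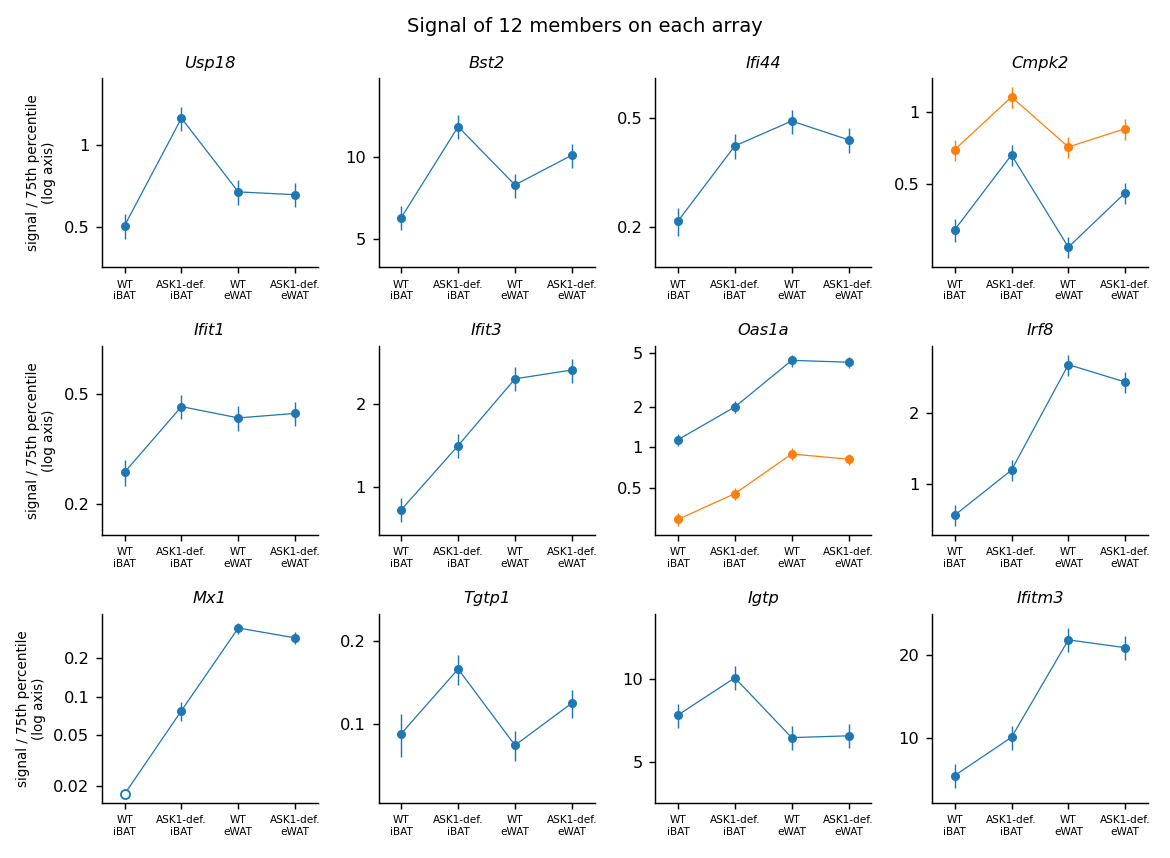
Level of 12 members on each of the 4 arrays, as the signal divided by the 75th percentile of its array (y axis, log scale), with 1 line per probe and bars for the scanner software's error. The open circle marks a probe not well above background (Mx1 in WT iBAT). For each of the 12 genes WT iBAT is below ASK1-deficient iBAT, and for Usp18 the ASK1-deficient iBAT level of 1.25 is the highest of the 4.

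In iBAT the ligands and receptors of the pathway had medians closer to 0 than the members. Among interferon ligands 15 were on the array and 9 were measured in each tissue, at low levels that summed to between 1.07 and 1.25 on the 4 arrays, and their median log2 ratio was −0.04 in iBAT, or 0.06 in eWAT. Ifnb1, the gene of interferon beta, was not well above background on any array, and Ifng, the gene of interferon gamma, was so in WT eWAT alone, where it was at least 3.20-fold higher than in ASK1-deficient eWAT (signals 70.4 and 16.7). Ifna7 was the only ligand 2-fold apart among those measured on both arrays of a tissue, with iBAT signals of 45.3 (WT) and 20.1 (ASK1-deficient) (log2 ratio −1.23) and neither eWAT array well above background. The interferon alpha genes are near-identical copies, so their probes may share signal. The 6 receptor genes had medians of −0.10 (iBAT) and 0.05 (eWAT), and none reached 1.5-fold. The type I receptor chains had iBAT log2 ratios of −0.20 (Ifnar1) and −0.26 (Ifnar2), the interferon gamma receptor chains 0.37 (Ifngr1) and 0.21 (Ifngr2), and the type III chains −0.00 (Ifnlr1) and −0.21 (Il10rb). In eWAT they were 0.06, 0.13, 0.03, −0.08, −0.35 and 0.07.

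The 11 kinases and transcription factors outside the members had medians of 0.16 and −0.01, and none reached 1.5-fold in either tissue. In iBAT and eWAT the log2 ratios were −0.05 and −0.01 for Jak1, 0.21 and −0.30 for Jak2, 0.26 and −0.24 for Tyk2, and 0.11 and 0.05 for Stat3. The sensing genes had medians of −0.15 (10 measured) and −0.14 (12 measured), and inhibitors and enzymes acting on nucleic acid 0.04 and −0.11 (12 in each). Of 77 other interferon-induced genes, 63 were measured in iBAT, of which 43 had a log2 ratio above 0, beside 40.5% of all genes, 11 were at least 1.5-fold higher, beside 4.52%, and none 1.5-fold lower, beside 4.26%. Their median was 0.16. In eWAT 71 were measured, 42 above 0, beside 54.1% of all genes, and 1, Epsti1, at least 1.5-fold higher (0.64), a share near the 1.38% of all genes. The eWAT median was 0.04. Beyond 2-fold in iBAT, where 0.835% of all genes were that much higher, were Apol9b, with signals of 55.5 (WT) and 128 (ASK1-deficient), a log2 ratio of 1.15, Slfn8 with 53.6 and 119 (1.09), and Ifi211, named Mnda in the files, with 447 and 934 (1.0). In eWAT these 3 had log2 ratios of −0.08, 0.17 and 0.30. Slfn8 belongs to the schlafen family and Ifi211 to the family of interferon-inducible nuclear proteins that bind DNA.

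**Figure D5:**
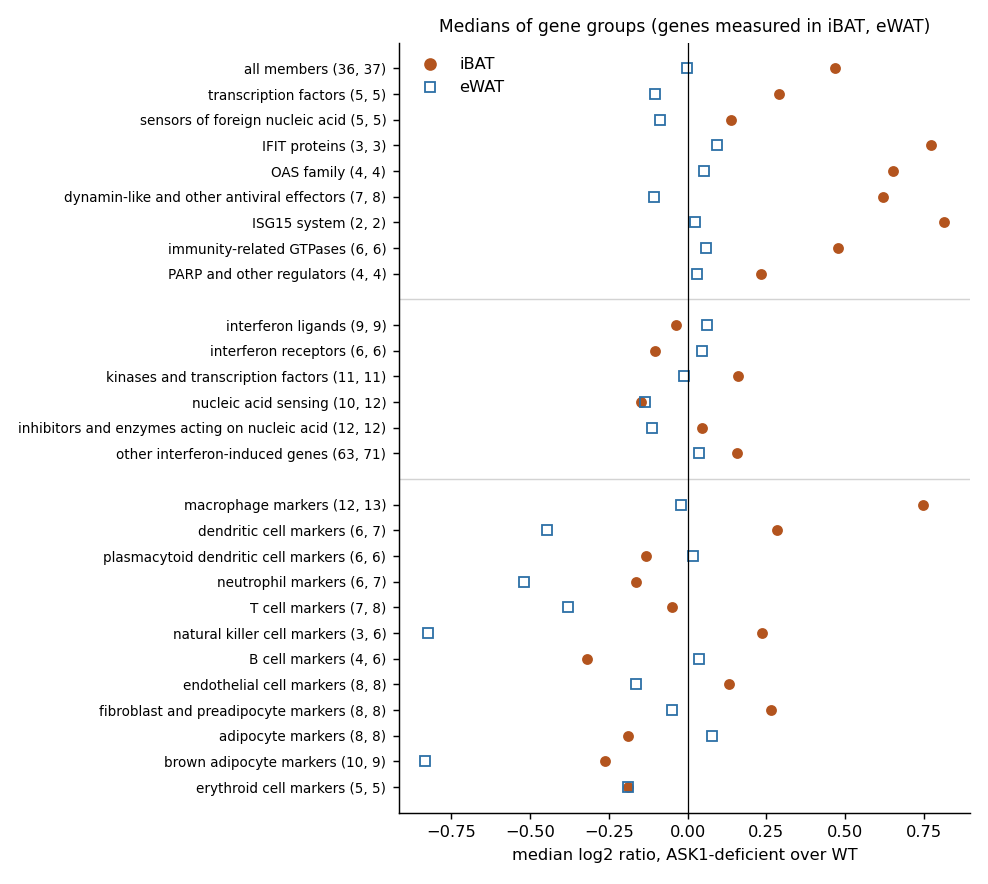
Median log2 ratio, ASK1-deficient over WT (x axis), of the members and their roles (top), of other lists of the interferon pathway (middle) and of cell type markers (bottom, without hepatocyte and epididymis markers) in iBAT (filled) and eWAT (open). Numbers in brackets are genes measured in iBAT and eWAT, some as low as 2. All 8 roles have an iBAT median above 0, as have macrophage markers (0.75), and receptor and ligand lists lie near 0.

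Markers of macrophages moved with the members. In iBAT all 12 measured macrophage markers had a log2 ratio above 0, against 40.5% of all genes, with a range from 0.06 to 1.01 and a median of 0.75. At least 1.5-fold higher were 8 of them, against 4.52% of all genes. Fcgr1, a receptor for immunoglobulin G that interferon gamma also induces, reached 1.01, Mertk 0.97, C1qa 0.86, Lyz2 0.81, Cd68 0.78 and Adgre1, named Emr1 in the files, 0.72. The summed level of the 13 macrophage markers was 21.9 (WT) and 30.5 (ASK1-deficient) in iBAT, 120 and 118 in eWAT, and Cd163 was not well above background in WT iBAT. In eWAT the macrophage median was −0.02, with 4 of 13 above 0. The macrophage list was thus higher in ASK1-deficient iBAT by a larger median than the members, near 0 in eWAT, and lower in iBAT than in eWAT in both genotypes (medians −3.00 and −2.35). The part of these cells in the members' values was not tested. Dendritic cell markers had medians of 0.28 (6 measured) and −0.45 (7), with summed levels of 2.11 and 2.87 in iBAT and 26.1 and 25.2 in eWAT, and Xcr1 was not well above background on any array. Plasmacytoid dendritic cell markers had −0.13 and 0.02 (6 in each), T cell markers −0.05 (7) and −0.38 (8), B cell markers −0.32 (4) and 0.04 (6), natural killer cell markers 0.24 (3) and −0.82 (6) and neutrophil markers −0.17 (6) and −0.52 (7). The medians in iBAT and eWAT were 0.13 and −0.16 for endothelial cell markers, 0.27 and −0.05 for those of fibroblasts and preadipocytes, −0.19 and 0.08 for adipocyte, −0.26 and −0.83 for brown adipocyte and −0.19 and −0.19 for erythroid markers. Hepatocyte markers had medians of 0.01 (3 measured) and −4.03 (5). Of 8 markers of epididymis epithelium, 1 was measured, with log2 ratios of −0.22 and −0.04.

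When genotype and tissue were fitted together over the 4 arrays with limma, on the 14057 genes well above background on all of them, no member passed an adjusted p of 0.05 (lowest adjusted p = 0.604, Benjamini-Hochberg), nor did any other gene. The fit has 1 degree of freedom left for the residuals and assumes the same genotype difference in iBAT as in eWAT. At an unadjusted p under 0.05 it gave 4 members as higher and none as lower in ASK1-deficient mice, against 2.68% and 2.8% of all genes. The 4 were Cmpk2, Tgtp1, Bst2 and Oas2, with fitted log2 ratios of 0.70, 0.64, 0.73 and 0.45, and each was higher in both tissues.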

How the data were processed

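For each of 4 samples, WT and ASK1-deficient iBAT and eWAT, the authors deposited the output of Agilent Feature Extraction 10.7.3.1 for a Cy3-labelled 1-colour array, whose processed signal (a linear intensity) had a background trend removed and surrogate values in place of dim spots, with no scaling between arrays. A deposited value table of the series holds the same signal divided by 1 constant per array (column median 1) and was used as an alternative. No normalization for ratios is given in the sources used here.

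Control spots and outlier-marked spots were left out, log2 was taken, spots of a probe were averaged, and each array was centred on its 75th percentile. Probes counted as well above background if the software marked the majority of their usable spots that way. A gene's value was the mean log2 ratio over the probes that met this on both arrays, over 22066 genes matched to RefSeq by symbol or synonym. A probe dim on 1 array was given as a bound, its dim side set to its own level or, where higher, to the dimmest probe well above background on that array. Where the probe's own level was the higher one (Parp9 and Xaf1 in iBAT), the value is the observed ratio and not a bound. Genes at least 2-fold and 1.5-fold apart were counted and set beside all genes. With 1 array per group no test was run within a tissue, and genotype and tissue were fitted together over the 4 arrays. limma 3.58.1 in R 4.3.3 was used for this fit, normexp (offset 50), quantile and loess normalization. The scripts were tested on simulated data. Probe positions are those of the files (mm9), and exons were not assigned.

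All 39 members are named. Given in full are the 8 with the largest differences in each tissue, those at least 2-fold apart, those whose probes differed by over 0.58, and at least 1 per role. From the lists of the pathway those 2-fold apart and the receptors, JAK kinases and STATs were named. Some genes of these lists are not reported here by name. The macrophage markers named were chosen after their values were seen. The members and all lists were chosen with earlier results of these data known.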

Additional observations from a re-analysis of the deposited data

Results flagged for a closer look

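For 5 members the log2 ratio, ASK1-deficient over WT, was above 0 in iBAT and below 0 in eWAT and lay beyond 2 median SDs of repeated spots in each, against 5.5% of 14059 genes. None of the 36 members measured in both tissues met this in the other direction, against 6.61%. They were Irf8 (0.63 in iBAT and −0.24 in eWAT), Stat2 (0.35 and −0.18), Zbp1 (0.59 and −0.16), Rsad2 (0.40 and −0.30) and Ifi44 (0.91 and −0.23). For Zbp1 the eWAT value is a mean of 2 probes. It was −0.10 on the 1 probe also measured in iBAT and −0.07 after normexp correction, both within 2 median SDs. Over the settings tried, the iBAT ratio of Ifi44 lay between 0.43 and 1.01. In eWAT the ratios of all 5 members lay within 2 of their own software errors of 0. Among genes above 0 in iBAT and below 0 in eWAT, 29.4% of the 17 members and 30.5% of 2535 genes lay beyond 2 median SDs. The share among members was thus near the background. Each value comes from 1 array per group, and whether the 2 tissues differ was not tested.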

How the results depend on the processing

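The median log2 ratio of the members in iBAT stayed above 0 in all settings tried, between 0.38 and 0.57. The upper value came when the 75th percentile was taken over the probes detected on every array. The same 33 of 36 members were above 0 in every setting that kept the filter on dim probes. Eif2ak2 and Parp9 changed sign over these settings, 2 of 36 members against 29.2% of all genes, and Dhx58 stayed below 0. With dim probes averaged in, Irf1 (−0.08) and Ifih1 (−0.03) also lay below 0 in iBAT. In eWAT 11 of 37 members changed sign, as did 34.1% of all genes, and without scaling the median was −0.088, beside −0.07 for all genes. At 1.5-fold in place of 2-fold, 13 members were higher in ASK1-deficient iBAT. In WT mice 19 were lower in iBAT than in eWAT, against 21.4% of all genes. In ASK1-deficient mice 14 were lower, against 21.2%, and 3 higher, against 23.2%. The count of 13 (4.52% of all genes) became 7 after normexp correction (1.59%), 9 after median centring (3.28%) and 17 with the percentile over detected probes (6.65%). Without scaling, 32 members in WT and 21 in ASK1-deficient mice were at least 2-fold lower in iBAT than in eWAT, against 39.6% and 35.6% of all genes. The medians were −1.62 and −1.16, beside −0.80 and −0.75 for all genes, and the difference between members and all genes stayed at −0.82 and −0.41. The eWAT arrays were brighter (75th percentiles of 673 and 634, against 356 and 371). The WT tissue median was −0.83 with the percentile over detected probes, −0.78 after cyclic loess and −0.55 after normexp. Without the filter on dim probes, 1 member was 2-fold lower in ASK1-deficient eWAT (Oas3, dim on all arrays), and 1 was higher in iBAT than in eWAT in each genotype (Oas1g in WT and Oas3 in ASK1-deficient mice, both dim on all arrays). No paired analysis was possible because the groups share only 1 replicate number, beyond the joint fit of genotype and tissue. With 1 array per group no replicate could be left out and the slide could not be a block. Software errors and repeated spots cover technical scatter within an array alone.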

Other observations

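Genes outside the members whose promoter windows held the ISRE letters were also compared, as a description. In iBAT, 401 such genes had a median log2 ratio of −0.02, and 5.99% were higher by at least 1.5-fold without ASK1. The 10850 genes without the letters had a median of −0.08, and 4.11% were as much higher. In eWAT the medians were 0.01 and 0.02 over 436 and 11573 genes. Among the members the medians in iBAT were 0.45 with the letters (15 genes) and 0.45 without (12 genes), so the presence of these letters in this window did not order the members.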
